A study of Drosophila melanogaster with 12 samples.

Results

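The lysozyme gene family of Drosophila melanogaster was followed through RNA sequencing of guts and fat bodies from adult females with and without induction of RNAi against Pnt. The 7 listed lysozyme genes were *LysB*, *LysC*, *LysD*, *LysE*, *LysP*, *LysS* and *LysX*. They were picked by name, through their FlyBase identifiers, and not by a measured value, but with earlier results of these data known. All 7 were among the 10358 genes counted in the gut, and 6 were among the 11056 genes counted in the fat body, where *LysS* was not analysed here. The comparisons between tissues used the 10005 genes present in both.

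Lysozymes cut the peptidoglycan of bacterial cell walls. In flies the chicken-type lysozymes of this family are secreted, and *LysB*, *LysD* and *LysE* are known from the midgut, where they are counted among digestive enzymes as well as defence factors, since flies eat microbes. *LysP* is known from the adult salivary gland. *LysB*, *LysC*, *LysD* and *LysE* are near-identical copies, so that a read from one can be placed on another.

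Induced flies carried the Pnt RNAi construct under the S106 GeneSwitch driver, which is active in gut and fat body, and were fed 200 µM RU486 for 6 days after 48 h of mating. Control flies carried the same driver and construct and received ethanol vehicle, as the methods of the study state, although the sample labels give the RU486 dose for every sample and only their induction field separates the groups. All flies were in the same outbred background, and no library came from flies fed RU486 without the construct, so effects of the inducer and of the RNAi cannot be told apart. There were 3 libraries each from induced guts (107, 108 and 109), control guts (110, 111 and 112), induced fat bodies (101, 102 and 103) and control fat bodies (104, 105 and 106). Each came from the pooled organs of 12 flies. Guts were taken without the tubules, and the fat body was the abdominal carcass without reproductive organs, so that it also held cuticle, muscle and other cells.

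Totals ran from 5916313 to 8889127 counts in induced guts, from 7172991 to 10254951 in control guts, from 4932359 to 8304564 in induced fat bodies and from 7310630 to 9580571 in control fat bodies. Levels are given as CPM, which are counts scaled by library total and by TMM factors within a tissue. Shares of the gut level and profiles over 12 libraries use TMM factors over all 12 libraries instead. The marker lists followed the tissue labels, with 9 of 9 midgut enterocyte markers higher in guts and 5 of 7 fat body markers higher in fat bodies at 10% FDR in both induced and control flies, while *bmm*, a lipase gene, was higher in guts in both. The transcript of *pnt*, the target of the RNAi, had a level of 22.0 to 24.4 CPM in induced guts, against 23.8 to 31.8 CPM in control guts. In fat bodies it had 8.06 to 10.8 CPM in induced, against 11.1 to 13.4 CPM in control libraries, and it passed the test in neither tissue. Control gut 112 and control fat body 106 were the libraries farthest from the others of their groups, with root mean square log2 differences of 0.903 and 1.05 over all well counted genes, against 0.435 to 0.837 for the other libraries. Fold changes of the lysozymes and counts of listed genes called on induction are therefore also given without library 112 in guts and, where they differ, without library 106 in fat bodies. P-values here measure the spread between these samples, since the labels do not state how the replicates were raised.

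The 7 genes lie together on the left arm of chromosome 3 (3L), within 33500 bases that run from 1194739 to 1228238 in genome release 6 (Ensembl release 115, BDGP6.54). *LysX* lies at one end, from 1194739 to 1195302 on the minus strand. *LysB* (1207371 to 1207981, plus), *LysC* (1210485 to 1210726, plus), *LysD* (1210717 to 1211196, minus) and *LysE* (1212827 to 1213406, plus) follow as a close group. *LysP* (1218082 to 1218696, minus) and *LysS* (1227747 to 1228238, plus) lie beyond them. Every annotated transcript of the 7 genes is a single exon, and all but *LysX* lie in an intron of *mwh*, a gene of wing hair polarity, without touching its exons. *LysC* is annotated as a pseudogene of 242 bases, and its last 10 bases overlap those of *LysD* on the other strand. The sources do not state whether reads were counted by strand or how reads with several matches were treated, so the split of reads between the 4 copies is uncertain and their sum is given beside them.

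*LysD* was the leading lysozyme of the gut by a wide margin. It stood at 10608, 8397 and 10496 CPM in induced guts, against 10448, 6742 and 8452 CPM in control guts. By mean CPM this made it the 9th most abundant of 10358 genes in induced guts and the 13th in control guts. The ranges of the groups overlapped, and control library 111 was the lowest of the 6 guts. *LysE* stood at 1633, 1474 and 1794 CPM in induced guts, against 1724, 1269 and 1506 CPM in control guts, again with overlapping groups. *LysC*, the annotated pseudogene, reached 1293, 1140 and 1382 CPM in induced guts, against 1602, 1077 and 1280 CPM in control guts. *LysB* stood at 1705, 1762 and 2218 CPM in induced guts, against 1651, 1498 and 1539 CPM in control guts. Every induced gut was above every control gut for *LysB*, by a small margin.

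The other members were far less abundant and varied more between libraries. *LysS* stood at 235, 141 and 71.8 CPM in induced guts, against 137, 11.2 and 187 CPM in control guts. Its groups overlapped, and control library 111 held 129 counts of *LysS* where the other guts held 536 to 1318. *LysP*, known from the salivary gland, stood at 112, 80.0 and 33.1 CPM in induced guts, against 2.58, 3.90 and 26.8 CPM in control guts. These values rest on 625, 722 and 247 counts in induced guts and on 21, 45 and 179 counts in control guts. Every induced gut lay above every control gut for *LysP*, and the highest control was library 112. *LysX* stood at 14.6, 19.0 and 22.2 CPM in induced guts, against 28.7, 32.2 and 154 CPM in control guts. Every induced gut lay below every control gut for *LysX*, and library 112 was again the highest control, with 1027 counts.

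**Figure D1:**
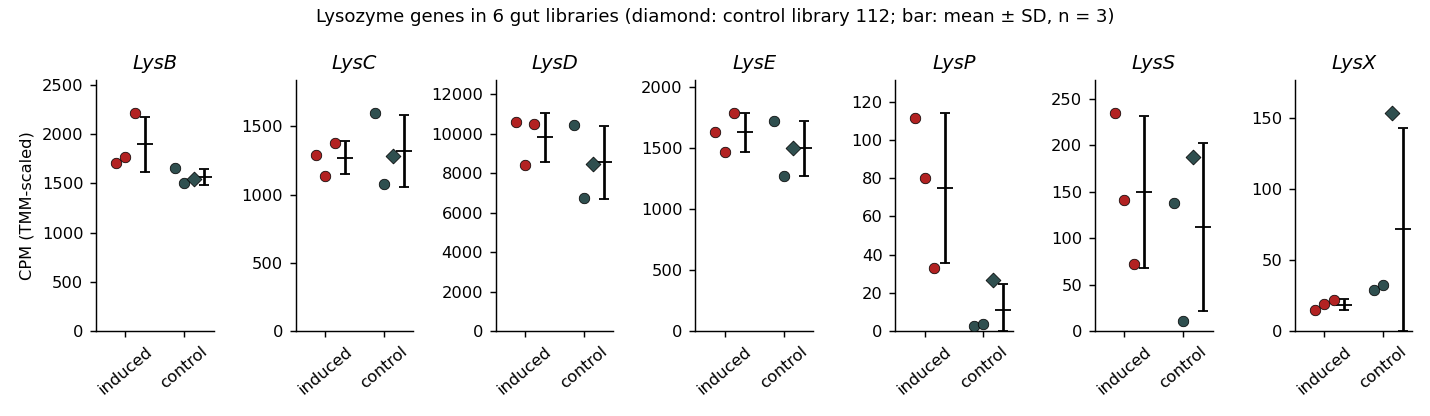
CPM of each lysozyme gene (vertical axis, linear, a scale of its own in each panel) in 3 induced and 3 control guts, with 1 point per library, control library 112 as a diamond, and a bar for mean ± SD (cut at 0 where the SD exceeds the mean). LysB and LysP are higher and LysX is lower in every induced gut, and library 112 stands at 26.8 CPM for LysP and 154 CPM for LysX.

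Within a group, the highest library exceeded the lowest by at most 1.55 times for *LysB*, *LysC*, *LysD* and *LysE*. The same ratio was 3.37 in induced and 10.4 in control guts for *LysP*, 3.28 in induced and 16.7 in control guts for *LysS*, and 1.52 in induced and 5.36 in control guts for *LysX*. Together the 7 genes took 1.477, 1.320 and 1.597% of all counts in induced guts and 1.558, 1.195 and 1.222% in control guts.

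Levels of different genes were compared as CPM per kb of annotated exon. *LysD* led with 20487 ± 2594 CPM per kb in induced and 17807 ± 3864 CPM per kb in control guts (SD, n = 3 each), and on this scale it ranked 7th of 10279 genes in both groups. *LysC* was next with 5255 ± 507 CPM per kb in induced and 5455 ± 1094 CPM per kb in control guts, a position that rests on its short annotated length. *LysB* averaged 3101 ± 460 CPM per kb in induced and 2557 ± 130 CPM per kb in control guts, and *LysE* 2817 ± 276 and 2586 ± 392 CPM per kb in the same groups. The ranges of *LysB* and *LysE* overlapped in both groups, so their order is not set, whereas *LysD*, *LysC* and this pair did not overlap in either. *LysS* came lower, at 304 ± 167 CPM per kb in induced and 228 ± 185 CPM per kb in control guts, and did not overlap the 4 leading genes.

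The order of the last 3 members differed between the groups. *LysP* averaged 122 ± 64.2 CPM per kb in induced and 18.1 ± 22.2 CPM per kb in control guts, and *LysX* averaged 33.0 ± 6.76 CPM per kb in induced and 127 ± 127 CPM per kb in control guts. In induced guts *LysP* lay above *LysX* in every library, from 53.8 to 181 against 26.0 to 39.4 CPM per kb, and its range overlapped that of *LysS*. In control guts *LysP* lay below *LysX* in every library, from 4.19 to 43.6 against 50.9 to 273 CPM per kb. There the range of *LysX* sat inside that of *LysS*, at 22.7 to 381 CPM per kb, and the range of *LysP* overlapped that of *LysS* as well.

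**Figure D2:**
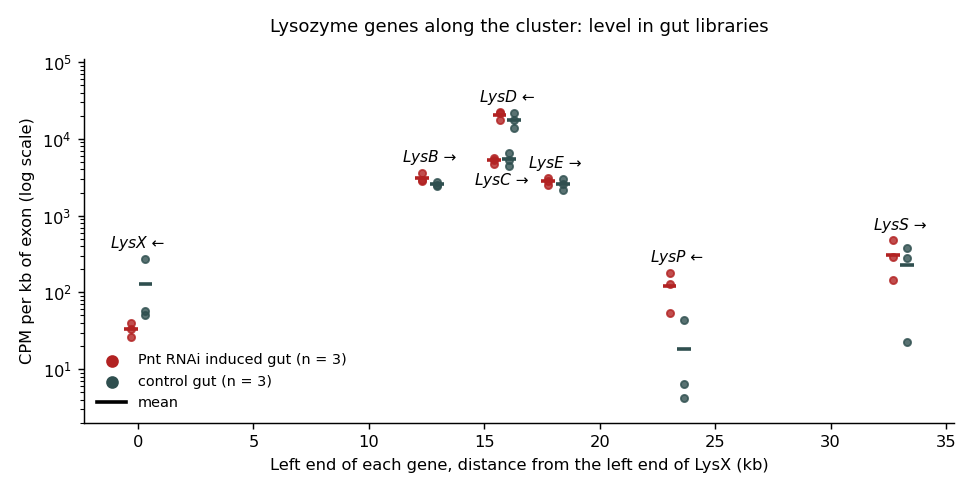
CPM per kb of exon (log scale) in 3 induced and 3 control guts, plotted at the distance in kb of each gene's left end from that of LysX; points are libraries, lines are group means and arrows give the strand. The 4 copies LysB to LysE, 12.6 to 18.1 kb from LysX, hold the high levels, and the members on either side, LysX, LysP and LysS, are lower.

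The comparison of induced with control guts asks which transcripts respond to induction of the RNAi against Pnt. None of the 7 lysozymes passed 10% FDR by edgeR (0.0483% of all genes did), by DESeq2 (0.415% did) or by limma on the transformed values (0.0579% did). At an unadjusted p under 0.05 edgeR marked 2 of 7, *LysP* and *LysX*, against 5.43% of all genes. Groups did not overlap for 3 of 7, *LysB* and *LysP* higher and *LysX* lower in induced guts, against 10.2% of all genes (5.38% higher and 4.81% lower). The median log2 fold change of the 7 was 0.20, beside -0.06 over all genes.

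The largest log2 fold change was that of *LysP*, 2.78 (standard error 0.87, 95% interval 0.78 to 4.77), with an adjusted p of 0.836 by edgeR and 0.649 by DESeq2. The estimate for *LysX* was -1.94 (standard error 0.63, 95% interval -3.39 to -0.48), with an adjusted p of 0.836 by edgeR and 0.142 by DESeq2. Both estimates turned on control library 112. Without it *LysP* passed the threshold, with a log2 fold change of 4.52 and an adjusted p of 0.0453 by edgeR, and of 4.56 with an adjusted p of 8.1e-17 by DESeq2. Without it the log2 fold change of *LysX* was -0.69 by edgeR (adjusted p = 0.113) and -0.67 by DESeq2 (adjusted p = 0.0716). In these fits 8.49% of all genes passed by edgeR and 18.5% by DESeq2, so that a call there is far less unusual than with all libraries. DESeq2 also called *LysX* without control library 110, with a log2 fold change of -2.32 and an adjusted p of 0.0363, where it called 0.377% of all genes. It did so again without control library 111, with a log2 fold change of -2.29 and an adjusted p of 0.0226, where it called 0.406% of all genes.

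The 4 close copies stood within narrow intervals. The log2 fold change was 0.28 for *LysB* (95% interval -0.29 to 0.84), -0.05 for *LysC* (-0.64 to 0.53), 0.20 for *LysD* (-0.56 to 0.96) and 0.12 for *LysE* (-0.45 to 0.70), and each adjusted p was 0.853 or more by edgeR. With the counts of the 4 genes summed into 1 feature the log2 fold change was 0.18 (95% interval -0.61 to 0.97). A 2-fold change in either direction lies outside this interval, a rise only just. The standard errors of the 4 genes were 0.25 to 0.33 in the gut fit but 0.58 to 0.82 in 1 fit over 12 libraries. *LysS* had a log2 fold change of 0.42 with a much wider interval of -1.48 to 2.31, and its sign changed without induced library 107 (-0.065) or control library 111 (-0.11), as did that of *LysC* without induced library 108 (0.037) or control library 110 (0.11). Without control library 112 the log2 fold change by edgeR was 1.03 for *LysS* and from -0.058 to 0.28 for the 4 copies, none of which passed. By a two-sided exact permutation test on CPM, p was 0.1 for *LysB*, *LysP* and *LysX*, the smallest that 3 libraries against 3 allow, and 0.4 to 0.9 for the other 4.

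**Figure D3:**
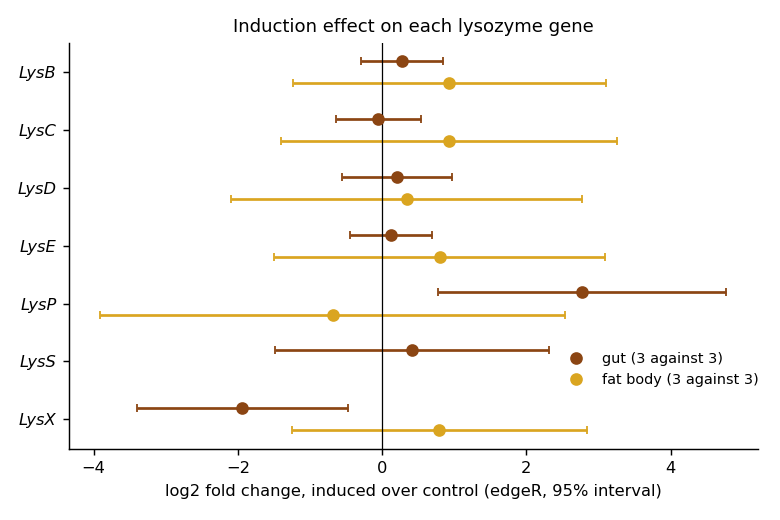
Log2 fold change of induced over control libraries for each lysozyme gene in gut and fat body, with the 95% interval of the edgeR fit (3 against 3 libraries). Gut intervals of LysP (0.78 to 4.77) and LysX (-3.39 to -0.48) lie off 0 before adjustment, those of LysB to LysE are narrow around 0, and every fat body interval spans 0.

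In bulk tissue fewer cells of a type and less RNA per cell cannot be told apart, and cell type markers are given for that reason. The 9 midgut enterocyte markers, digestive proteases, amylase and related genes, summed to 39424, 40211 and 33591 CPM in induced guts, against 60210, 58261 and 27439 CPM in control guts, with library 112 the lowest. None of the 9 passed 10% FDR by edgeR or DESeq2, 0 had an unadjusted p under 0.05 by edgeR, and their median log2 fold change was -0.54. Without library 112 edgeR called 1 of 9 lower in induced guts (8.49% of all genes passed) and DESeq2 6 of 9 lower (18.5% did). Of the salivary gland list 3 of 4 genes were measured, and their sum was 41.8, 36.4 and 35.8 CPM in induced and 34.9, 42.4 and 52.9 CPM in control guts. Nearly all of it was *fkh*, a factor that the gut expresses as well. The salivary regulator *sage* was near 0, with 0.179 to 1.11 CPM in induced and 0.491 to 0.900 CPM in control guts. The part that cell composition has in the values of *LysP* and *LysX* was not tested.

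The split of reads among the 4 copies was described next, and it was chosen for mention after its values were seen. *LysD* held 69.6, 65.7 and 66.1% of their summed counts in induced guts and 67.7, 63.7 and 66.1% in control guts. *LysB* held 11.2, 13.8 and 13.96% in induced guts and 10.7, 14.1 and 12.04% in control guts, and *LysE* 10.7 to 11.5% in induced and 11.2 to 11.99% in control guts. The groups overlapped for these 3 genes. *LysC* held 8.49, 8.92 and 8.70% in induced guts, against 10.4, 10.2 and 10.0% in control guts, library 112 included. The 95% Wilson intervals of *LysC* ran from 8.30 to 9.09% over the induced and from 9.82 to 10.6% over the control libraries, and they cover counting error only. The difference in the *LysC* share was -1.49 percentage points (two-sided exact permutation p = 0.1, the smallest possible with 3 libraries each, and 0.267 after Benjamini-Hochberg adjustment over 8 such tests). In fat bodies the *LysC* share differed by 0.609 points (exact p = 0.7), on 19 to 501 counts of the 4 genes. There the *LysB* share was 14.2 to 36.8% in induced against 10.3 to 12.4% in control libraries, and the *LysD* share 47.4 to 66.5% in induced against 70.9 to 73.7% in control libraries, each without overlap (exact p = 0.1, adjusted 0.267). Relative to *LysD*, counts of *LysC* were 12.2 to 13.6% in induced and 15.1 to 16.0% in control guts. How reads were placed among the copies was not tested.

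**Figure D4:**
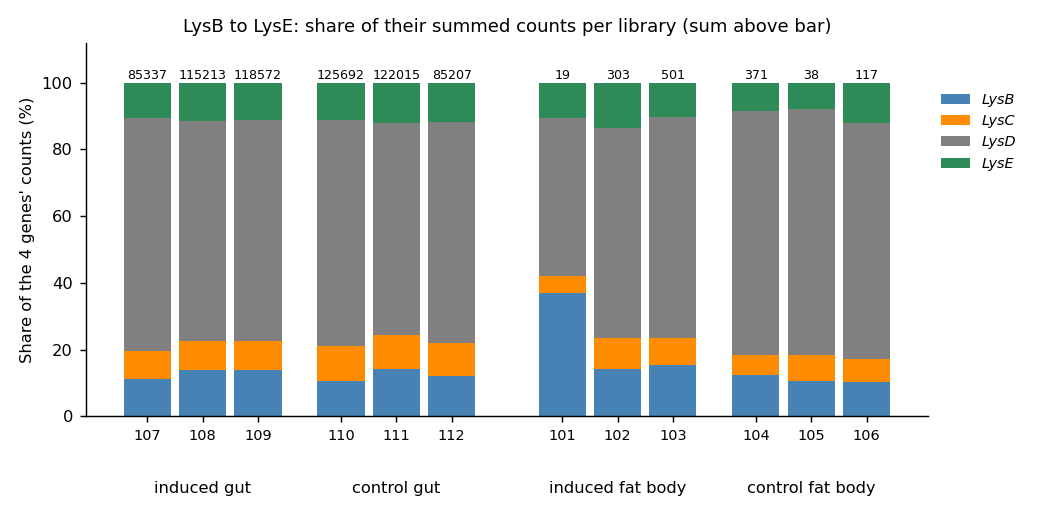
Share in percent of the summed counts of LysB, LysC, LysD and LysE that each gene takes, 1 bar per library (induced left of control in each tissue, number of counts above the bar). LysD takes 63.7 to 69.6% in every gut, LysC 8.49 to 8.92% in induced against 10.0 to 10.4% in control guts, and fat body bars rest on 19 to 501 counts.

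By group mean the lysozymes were far lower in the fat body than in the gut. *LysD* still stood 4866th of 11056 genes in induced and 5519th in control fat bodies by mean CPM. *LysD* stood at 1.73, 20.3 and 40.3 CPM in induced fat bodies, against 35.0, 3.75 and 10.8 CPM in control fat bodies. *LysB* stood at 1.34, 4.56 and 9.32 CPM in induced and at 5.93, 0.536 and 1.56 CPM in control fat bodies. *LysC* had 0.192, 2.97 and 4.84 CPM in induced and 2.84, 0.402 and 1.04 CPM in control fat bodies. The 4 copies shared their high and low libraries, with sums of 3.65, 32.2 and 60.6 CPM in induced and 47.9, 5.09 and 15.2 CPM in control fat bodies, and both groups held high and low libraries. *LysE* followed the same order, at 0.384, 4.35 and 6.17 CPM in induced and 4.13, 0.402 and 1.82 CPM in control fat bodies. *LysP* had 0, 9 and 3 counts in induced and 0, 2 and 16 counts in control fat bodies. Its counts of 0 allow up to 0.608 CPM in library 101 and 0.394 CPM in library 104, the level of 3 counts of the unscaled total. *LysX* had 2, 19 and 4 counts in induced and 3, 8 and 2 counts in control fat bodies, so that 3 of 6 libraries held 3 counts or fewer. The 6 genes took 0.000426 to 0.00612% of counts in induced and 0.000657 to 0.00491% in control fat bodies.

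None of the 6 measured lysozymes passed 10% FDR between induced and control fat bodies by edgeR (0% of all genes did), DESeq2 (0.145% did) or limma (0% did), and without library 106 none passed by edgeR (0% did) or DESeq2 (0.760% did). By edgeR 0 of 6 had an unadjusted p under 0.05, against 2.73% of all genes, and 0 of 6 had groups that did not overlap, against 8.27% of all genes. The log2 fold change was 0.93 for *LysB* and for *LysC*, 0.34 for *LysD*, 0.80 for *LysE*, 0.79 for *LysX* and -0.69 for *LysP*, with standard errors of 0.87 to 1.38. The median of the 6 was 0.80, beside -0.05 over all genes. Intervals were wide, at -1.82 to 2.84 for the summed counts of the 4 copies, so that neither a rise nor a fall of 2-fold lies outside them. By edgeR the sign changed for *LysD* without induced library 103 (-0.57) or control library 105 (-0.10), for *LysP* without control library 106 (1.77) and for *LysX* without induced library 102 (-0.35).

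The effect of induction in the gut was set against that in the fat body as an interaction over all 12 libraries. None of the 6 genes passed by edgeR (0% of all genes did) or by DESeq2 (0.130% did), and by edgeR 1 of 6, *LysX*, had an unadjusted p under 0.05, against 3.42% of all genes. The gut effect minus the fat body effect was -2.77 for *LysX* on the log2 scale (95% interval -5.33 to -0.22, adjusted p = 0.999 by edgeR) and 3.40 for *LysP* (-0.34 to 7.14, adjusted p = 0.999). For *LysB*, *LysC*, *LysD* and *LysE* it lay between -1.01 and -0.15, with standard errors of 0.93 to 1.18. By edgeR the value of *LysP* was 5.17 without control gut 112 and 0.98 without control fat body 106, and that of *LysX* was -1.51 and -2.44 in the same fits, in none of which they passed.

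The tissues themselves differed strongly for this family. All 6 genes measured in both were higher in guts than in fat bodies at 10% FDR by edgeR, in induced flies (21.0% of all genes were higher) and in control flies (19.9% were). In induced flies the log2 fold change of gut over fat body was 8.87 for *LysB*, 9.19 for *LysC*, 9.24 for *LysD*, 9.12 for *LysE*, 7.54 for *LysP* and 4.52 for *LysX*, with standard errors of 0.80 to 1.26. Their adjusted p ran from 2.6e-06 for *LysC* to 0.000610 for *LysX* by edgeR. In control flies it was 9.54 for *LysB*, 10.20 for *LysC*, 9.39 for *LysD*, 9.82 for *LysE*, 4.14 for *LysP* and 7.29 for *LysX*, with standard errors of 0.89 to 1.18. There *LysP* had the highest adjusted p, 0.0127 by edgeR, and the other 5 had 3.8e-05 or less. Without control gut 112 the value of *LysP* in control flies was 2.37 by both tools, which passed by edgeR (adjusted p = 0.0762) and missed the threshold by DESeq2 (adjusted p = 0.173), in a DESeq2 fit that called 45.1% of all genes.

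The small amounts in fat bodies were set beside those of gut marker genes. For these shares CPM were scaled over all 12 libraries and not within a tissue. As a share of the mean gut level, each fat body library held 0.0115 to 0.428% of *LysB*, *LysC*, *LysD* and *LysE*. Of the 9 midgut enterocyte markers, which a fat body should lack, 8 stood at 0 to 0.574% in the same libraries, and *Npc2f*, a sterol-binding protein gene, stood at 0.985 to 4.22%. The sum of the 9 was 23.8, 65.7 and 87.0 CPM in induced and 59.1, 28.5 and 77.2 CPM in control fat bodies. Libraries 101 and 105 were the lowest of their groups for these markers and for the 4 copies alike, whereas among the controls library 106 was highest for the markers and library 104 for the copies. Within single libraries the 4 copies and these 8 markers did not keep one order. In library 104 *LysB*, *LysD* and *LysE* stood above all 8 markers, with a highest share of 0.289% for the copies against 0.186% for the markers, in library 102 *LysB*, *LysC* and *LysE* did (0.214% against 0.176%), and in library 103 *LysB* did (0.428% against 0.388%). In libraries 101, 105 and 106 none of the 4 copies stood above all 8. How much of the level of the copies in fat bodies came from gut tissue was not tested. *LysX* stood at 0.442 to 3.43% and *LysP* at 0 to 3.70% of their gut means, higher shares on few counts. Those means pool induced and control guts, over which *LysP* ran from 2.58 to 112 CPM and *LysX* from 14.6 to 154 CPM. By CPM scaled within a tissue, *LysP* in control fat body 106 (2.08 CPM, 16 counts) was near control guts 110 (2.58 CPM) and 111 (3.90 CPM).

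**Figure D5:**
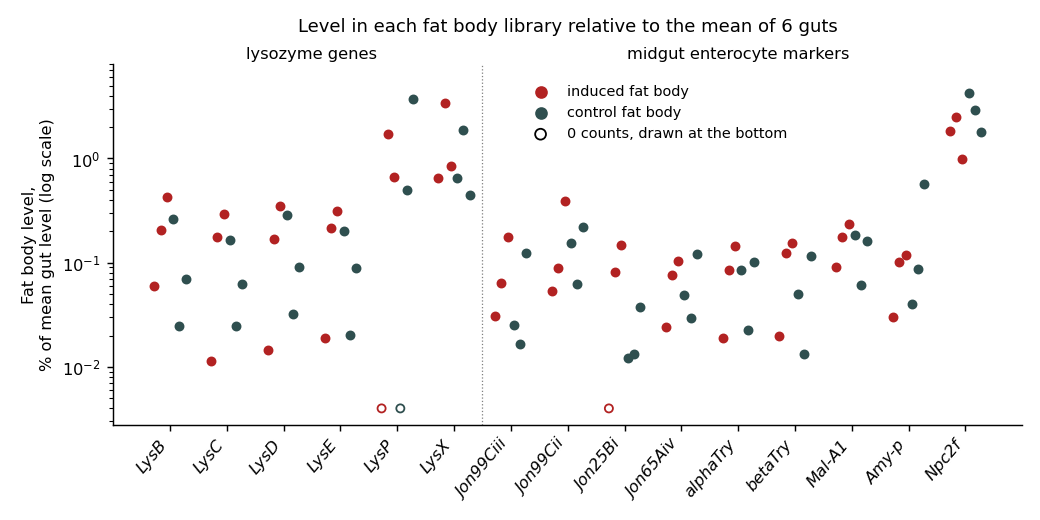
Level in each fat body library as a percent of the mean of 6 guts (log scale) for the 6 lysozymes measured in both tissues and the 9 midgut enterocyte markers, with induced and control libraries in separate colours and open points for 0 counts. CPM were scaled over all 12 libraries here. LysB to LysE lie at 0.0115 to 0.428% and 8 of the 9 markers at 0 to 0.574%. In libraries 102, 103 and 104 at least 1 of the 4 copies lies above all 8.

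Other genes with a lysozyme or lysozyme-like product had the opposite tissue pattern. The list held 11 genes, of which 6 were counted in guts and 8 in fat bodies. Of the 6 counted in both, 6 were lower in guts than in fat bodies at 10% FDR by edgeR in induced flies (22.7% of all genes were lower) and 6 in control flies (18.3% were). Their median log2 fold change of gut over fat body was -4.62 in induced and -5.49 in control flies. The sum of these 6 was 42.2 to 65.2 CPM in induced and 31.2 to 60.7 CPM in control guts, and 633 to 841 CPM in induced and 774 to 937 CPM in control fat bodies. The most abundant in the gut was *CG16799*, a chicken-type lysozyme gene, at 51.8, 30.4 and 37.5 CPM in induced and 30.3, 22.2 and 49.5 CPM in control guts. In fat bodies *CG16799* stood at 270, 255 and 302 CPM in induced and at 365, 287 and 281 CPM in control libraries. *CG6426*, an invertebrate-type lysozyme gene, averaged 7.43 CPM in induced and 5.91 CPM in control guts, and 249.7 CPM in induced and 313 CPM in control fat bodies. None of the list passed 10% FDR on induction by edgeR or DESeq2, 0 of 6 in guts and 0 of 8 in fat bodies, and 0 had an unadjusted p under 0.05 by edgeR in either.

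Peptidoglycan is also bound or cut by the recognition proteins and amidases of the PGRP family, and 12 of 13 listed genes were measured in each tissue. In guts none passed by edgeR and DESeq2 called 1, *PGRP-SC1a*, an amidase gene that was higher in induced guts, beside 0.415% of all genes, while 3 of 12 had an unadjusted p under 0.05 by edgeR, against 5.43% of all genes. *PGRP-SC1a* stood at 66.1, 146 and 145 CPM in induced guts, against 48.6, 47.3 and 20.5 CPM in control guts, with no overlap between the groups, as in 10.2% of all genes. Its log2 fold change was 1.61 (standard error 0.42), with an adjusted p of 0.0203 by DESeq2 and 0.836 by edgeR, and its reads can be shared with the near-identical *PGRP-SC1b*. *PGRP-SC2*, an amidase gene and the most abundant of the list, stood at 1209, 1402 and 1843 CPM in induced guts, against 750, 710 and 939 CPM in control guts. Its groups did not overlap either, and it passed neither test, with an adjusted p of 0.161 by DESeq2. Without library 112 edgeR called both as higher in induced guts, where 8.49% of all genes passed, and DESeq2 called both and *PGRP-SC1b*, where 18.5% did. The median log2 fold change of the 12 was 0.49 in guts, beside -0.06 over all genes, and 0.06 in fat bodies, where 0 of 12 passed by edgeR or DESeq2 and 0 had an unadjusted p under 0.05 by edgeR.

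The Imd pathway signals from some receptors of the PGRP family to the factor *Rel*, and 12 of 12 listed genes were measured in both tissues. None passed by edgeR or DESeq2 in either tissue, and 2 of 12 in guts and 0 of 12 in fat bodies reached an unadjusted p under 0.05 by edgeR, beside 5.43% of all genes in guts and 2.73% in fat bodies. Without library 112 edgeR called 2 as lower in induced guts, *Diap2* and *nub*, where 8.49% of all genes passed, and DESeq2 called these with *Tak1* and *cad*, where 18.5% did. *Rel* stood at 64.3, 72.7 and 77.3 CPM in induced guts, against 95.6, 79.2 and 61.8 CPM in control guts, with overlapping groups. The pathway inhibitor *pirk* averaged 66.7 CPM in induced and 82.3 CPM in control guts, and the kinase subunit gene *key* 81.8 CPM in induced and 80.2 CPM in control guts. For *nub*, a repressor of immune genes in the gut and the listed gene with the lowest adjusted p by DESeq2 (0.308), values were 25.9, 21.0 and 17.8 CPM in induced guts, against 43.0, 42.2 and 33.4 CPM in control guts. Of 4 genes of oxidative defence in the gut, among them *Duox*, the dual oxidase gene, 0 passed by edgeR or DESeq2 and 0 had an unadjusted p under 0.05 by edgeR in either tissue. *Duox* itself stood at 0.536 to 3.10 CPM in induced and 0.150 to 11.6 CPM in control guts, and without library 112 it was lower in induced guts by DESeq2 (adjusted p = 0.0826) and not by edgeR (0.146).

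Of 8 measured factors that pattern the gut or drive its genes, 0 passed 10% FDR between induced and control guts by edgeR or DESeq2, and 4 had an unadjusted p under 0.05 by edgeR, against 5.43% of all genes. Without library 112 edgeR called 3 of 8 and DESeq2 5 of 8, all lower in induced guts, where 8.49% and 18.5% of all genes passed. The genes *nub* and *cad* stand on this list and on the Imd list. The sum of the 8 was 188, 171 and 172 CPM in induced guts, against 295, 313 and 192 CPM in control guts, with no overlap, and library 112 was the lowest control. *GATAe*, a GATA factor that activates enterocyte genes, stood at 50.7, 38.8 and 42.6 CPM in induced guts, against 73.3, 74.0 and 37.5 CPM in control guts, so that its groups overlapped through library 112.

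Genes with the most similar pattern were searched for among all genes with a mean of at least 10 CPM, as the smallest root mean square difference between profiles of log2(CPM + 0.5) centred on each gene's mean. Over the 6 guts there were 6144 candidates. The nearest genes to *LysB* (*asRNA:CR45999*), *LysD* (*CG34176*) and *LysE* (*CG10375*) differed by 0.05 each, and the nearest to *LysC* (*Fpgs1*) by 0.07. These 4 lysozymes varied little themselves, with SDs of 0.17 to 0.24, so that many steady genes lie close to them.

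The 3 more variable members lay farther from their nearest genes in the gut, on a measure that is not scaled by a gene's own SD. The nearest to *LysP*, *CG11672*, differed by 1.11, where *LysP* has an SD of 1.96. *CG11672* stood at 706, 414 and 447 CPM in induced guts, against 121, 122 and 191 CPM in control guts. Next came *Cyp6a23*, a cytochrome P450 gene, with 1905, 1525 and 1697 CPM in induced and 495, 370 and 1230 CPM in control guts, with its highest control in library 112 as for *LysP*. The nearest to *LysX* was *Mov10*, with a difference of 0.53 where *LysX* has an SD of 1.09, at 6.61, 17.7 and 15.3 CPM in induced guts and 18.5, 22.3 and 45.6 CPM in control guts. The nearest to *LysS* was *CG8093*, with a difference of 0.74 where *LysS* has an SD of 1.45, and its 47.4 CPM in library 111 was the lowest of the 6 guts, as for *LysS*. Over all 12 libraries, which adds the difference between tissues, *LysC* and *LysE* were nearest to each other, at 0.15. *LysB* and *LysD* were nearest to *LysE*, at 0.30 and 0.40. A gene outside the family, *CG17192*, was nearer to *LysC* (0.32) than *LysB* was (0.34). It ranked 3rd for *LysB* (0.45), *LysD* (0.54) and *LysE* (0.34). These are descriptions over libraries of shared groups and carry no test.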

How the data were processed

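Poly(A) RNA from 12 samples was sequenced with molecular identifiers. Duplicates were collapsed with Je 1.2, and HiSat2 2.1 (genome 6.19) and featureCounts 1.6 gave the raw counts per gene that the authors deposited for each tissue. They also deposited values of the DESeq2 variance-stabilising transformation, a log2-like score with library size removed. Genes without counts, or not analysed in another experiment of the study, had been dropped by the authors.

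Groups came from the induction labels. Each tissue was fitted in edgeR 4.0.16 (R 4.3.3) by quasi-likelihood, with TMM scaling, genes with at least 1 count, and Benjamini-Hochberg adjustment over all genes at 10% FDR. Tissue contrasts and the interaction used 1 fit over 12 libraries. DESeq2 1.42.0 on counts and limma 3.58.1 on the deposited score were alternatives, beside other scalings, filters, a 5% FDR, summing *LysB* to *LysE*, and leaving out each library. The independent hypothesis weighting of the study was not run. DESeq2 without each library, and counts of listed genes without libraries 112 and 106, were added after the data were seen. Intervals are at 95%. The fits were also run on simulated counts with planted changes. Those counts varied less between libraries than these data do, so the run checked the code and does not show how reliable calls are here.

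The members and gene lists were chosen with earlier results of these data known. Named genes are the 7 members, *pnt*, list genes past 10% FDR on induction or among the most abundant of their list in the gut, and the 3 genes nearest each member in profile. Names outside this rule (*nub*, *cad*, *Diap2*, *Tak1*, *bmm*, *Npc2f*, *sage*, *fkh*, *GATAe*, *Duox*) were taken for their values or as list examples after these were seen. Symbols were found for 10279 gut and 10969 fat body genes. Exon lengths are those of Ensembl 115 and may differ from the lengths the authors counted over.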

Additional observations from a re-analysis of the deposited data

How the results depend on the processing

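No paired analysis was possible because the labels hold no replicate numbers shared between groups. Single genes gave 201 values under the other scalings, filters, tests, thresholds and fits without a library left out. Each kept its direction and its side of the threshold. A stricter edgeR filter on low counts dropped *LysP* and *LysX* from the fat body fit, so they gave no value there. *LysS* gave none in the fit over 12 libraries. The 5% FDR reused the main estimates, and leaving out the main filter of at least 1 count added no gene, so neither setting could change a direction. The numbers of lysozymes called did not change either, whereas those over all genes did, as with 5 by edgeR and 43 by DESeq2 in guts. With 1 library left out, 0 to 1 of 7 lysozymes passed in guts by edgeR (1 without control library 112) and 0 to 2 by DESeq2 (1 without 110, 1 without 111, 2 without 112). Of all genes, 8.49% passed by edgeR without 112, and by DESeq2 0.377% did without 110, 0.406% without 111 and 18.5% without 112. In fat bodies and in the interaction the count was 0 in every such fit, where at most 0.760% and 1.51% of all genes passed. Between tissues the count was 6 in each, except 5 to 6 by DESeq2 in control flies, with 31.6 to 48.3% of all genes called in either direction. Over these fits log2 fold changes in guts ran from 2.29 to 4.56 for *LysP*, from -2.32 to -0.67 for *LysX*, from -0.11 to 1.04 for *LysS* and from -0.17 to 0.12 for *LysC*. Signs changed there for *LysS* without 107 (-0.065 by edgeR, -0.079 by DESeq2) and without 111 (-0.11 by both), and for *LysC* without 108 (0.037 and 0.049) and 110 (0.11 and 0.12). In fat bodies they ran from -0.59 to 1.52 for *LysD*, from -2.01 to 1.77 for *LysP*, from -0.37 to 1.596 for *LysX*, from 0.15 to 2.29 for *LysB* (highest without 104), from 0.16 to 1.90 for *LysC* and from 0.17 to 1.72 for *LysE*. Signs changed for *LysX* without 102 (-0.35 and -0.37), for *LysD* without 103 (-0.57 and -0.59) and 105 (-0.10 and -0.11) and for *LysP* without 106 (1.77 and 1.74). For gut minus fat body effects they ran from -1.31 to 0.86 for *LysD*, from -1.99 to 0.19 for *LysB*, from 0.98 to 5.43 for *LysP* and from -3.58 to -1.45 for *LysX*. Signs changed for *LysB* without 103 (0.15 and 0.19) and for *LysD* without 103 (0.83 and 0.86), 105 (0.31 and 0.37), 106 (0.073 and 0.12), 110 (0.016 and 0.055) and, by DESeq2, 108 (0.016). *LysP* in control flies ran from 2.37 to 6.78 for gut over fat body. The cause of these shifts was not tested. Counts of 0 to 333 per lysozyme limit every statement on the fat body, and with 3 libraries per group exact tests cannot go below 0.1.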

Other observations

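The remaining marker lists gave 0 calls on induction by edgeR and DESeq2 in either tissue. Without library 112 edgeR still called 0 of them in guts (8.49% of all genes passed), while DESeq2 (18.5% did) called *Yp1* and *Yp2* of the fat body list and *yl* of the ovary list as lower and *wupA* of the muscle list as higher in induced guts. Without library 106 edgeR called 0 of them in fat bodies (0% of all genes passed), and DESeq2 (0.760% did) called *Vm26Aa* of the ovary list and *Uro* of the Malpighian tubule list as higher in induced fat bodies. In guts 1 of 2 genes of the gastric copper cell list had an unadjusted p under 0.05 by edgeR, against 5.43% of all genes. None of the oenocyte, muscle, ovary, haemocyte, fat body and Malpighian tubule lists did. In fat bodies 2 of 4 ovary markers did, against 2.73% of all genes. Ovary markers varied strongly between guts, with sums of 18.4, 295 and 267 CPM in induced and 57.3, 387 and 8.25 CPM in control guts. Malpighian tubule markers summed to 158, 64.4 and 48.8 CPM in induced and 109, 106 and 64.3 CPM in control guts. In fat bodies the fat body list summed to 27131 to 51300 CPM in induced and 30350 to 116137 CPM in control libraries, with the highest value in library 106, and the oenocyte list to 23319 to 37406 CPM in induced and 20190 to 58076 CPM in control libraries.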
